A study of Rattus norvegicus with 6 samples.

Results

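The cytosolic ribosomal protein genes encode the proteins of the large and small subunits of the ribosomes that translate nuclear mRNAs, together with the P stalk of the large subunit. They were compared here in the gastrocnemius muscle of rats fed 3 sources of dietary protein. Members were all genes whose platform symbol begins with Rpl or Rps followed by a number, with an optional final a, x or l and digit, and in addition Rplp0, Rplp1, Rplp2 and Rpsa. For a symbol with several array entries (transcript clusters), the entry brightest on average over the 6 arrays stood for the gene. The rule gave 70 members of 14506 genes: 41 of the large subunit, 26 of the small subunit and 3 of the P stalk. The muscle-specific paralog Rpl3l, and Rps27a, Rps27l and Rpl7l1, were not analysed here.

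The muscle came from male Sprague-Dawley rats with diet-induced obesity, started on the diets at 12 weeks of age and sampled at 20 weeks after 8 weeks of free feeding. All diets were rich in fat and sucrose, held 4.6 kcal/g and supplied 10% of their energy as protein. The protein was casein in the control diet and skim milk powder, that is complete dairy protein, in the dairy diet. In the leucine diet casein supplied 7.1% of the energy and added leucine 2.9%. Each diet was given to 4 rats according to the design text, and 2 arrays per diet were analysed. Whether 2 arrays of the same diet are from different animals is not stated, so the tests measure only the spread between these arrays. The question the design poses is whether leucine or dairy protein alters muscle gene expression relative to casein.

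A ribosome needs 1 copy of nearly every one of these proteins, and most cells make their mRNAs in large amounts. In vertebrates these mRNAs typically start with a cytosine followed by an unbroken run of pyrimidines, the 5′ terminal oligopyrimidine or TOP tract. Through the TOP tract the kinase complex mTORC1, which senses leucine, controls how fast the mRNAs are translated. Arrays measure the amount of mRNA and not its translation.

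The first bases of the transcripts are shown because the TOP tract is the known link between leucine and these genes. RefSeq start sites on GRCr8 were found for 59 of the 70 members. A tract was defined as C at the first transcribed base followed by at least 4 further C or T, on the transcribed strand only. It was found in 23 of the 59 members (39.0%), against 2.63% of all 33469 genes in the RefSeq promoter table. The sequences below belong to the 9 members with a start site among the 12 whose unadjusted limma p was under 0.05 between leucine and dairy. Each runs 5′ to 3′ from 12 bases before the annotated start to 18 bases from it onward, with a TOP tract in capitals.
Rps26, chr7:1643387-1643416, minus strand: agccgccgggtcCTCTTTCgagtcttggct
Rps14, chr18:56498248-56498277, plus strand: ttccgtctctctCTTTCCggtggaggagtc
Rpl35, chr3:43165904-43165933, minus strand: cccttcctctttCTCTCgaaccgggcggcc
Rpl29, chr8:115947631-115947660, plus strand: cctttctctttctcttccggtcccaggcgc
Rps24, chr16:96505-96534, plus strand: gcggtcctcttttcctcctttacagctcgg
Rpl36, chr9:1533768-1533797, plus strand: tccggccgccatcggaaagctgcaggtaag
Rpsa, chr8:128728867-128728896, plus strand: ttccgcgctaccctggaacgggtccgtacg
Rpl11, chr5:153560785-153560814, minus strand: gacttgaagcttgtttggtgctggggagca
Rps16, chr1:92770646-92770675, plus strand: ggaaaatcggtcggggtggccccaagcttt
Rps26, Rps14 and Rpl35 carried a tract by this definition. Rpl29 and Rps24 had pyrimidines at the start site but T as the annotated first base, so they did not meet it. For Rpl36, Rpsa, Rpl11 and Rps16 no tract of these letters was in the window at the annotated start.

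The values are log2 signals, so a difference of 1 is a 2-fold difference. Signals of different genes come from different probes, so the following order of signals describes the array entries and not the amounts of the mRNAs. The members' means over the 6 arrays lay between 3.47 and 11.3 with a median of 8.71, and 68 of them exceeded the median gene (4.15). The 2 below it were Rpl22l1, a paralog of Rpl22, at 3.47 and Rps27 at 4.08, and the next dimmest were Rpl15, Rpl3 and Rps24. The brightest entries were those of Rps29, Rpl28, Rps4x, Rpl21 and Rplp1. The widest range over the 6 arrays was that of Rpl13, 1.41, followed by Rpl36, Rps15a, Rpl22l1 and Rpl11, with ranges down to 1.07. Exactly the same value on 2 or more arrays was listed for 15 members and for 60.8% of all genes. The second casein array stood apart in other genes. Its slow-fibre contractile genes, 13 measured, lay a median of 2.95 below their own means (deviation -2.95), and 20 hepatocyte markers lay 2.0 above theirs. The fast-fibre contractile genes typical of gastrocnemius were bright on every array, with a median level of 12.6 to 12.8. In whole muscle, fewer cells of a type and less RNA per cell cannot be told apart.

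**Figure D1:**
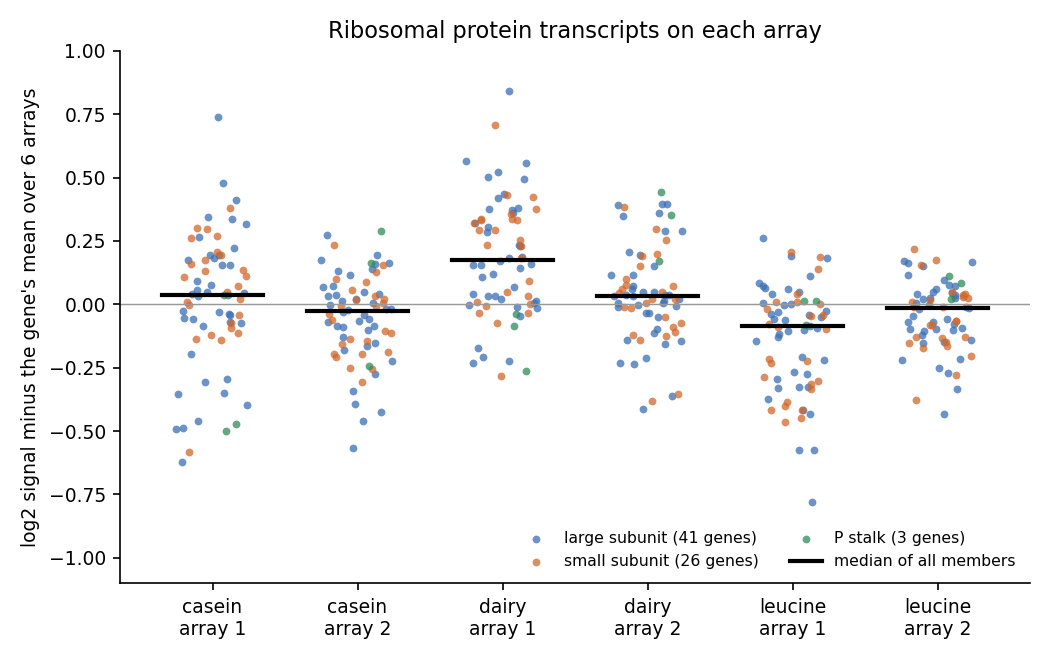
Log2 signal of each of the 70 members minus its own mean over the 6 arrays (vertical axis), by array (horizontal axis). Points are genes coloured by subunit and black bars are medians of all members. The first dairy array is the highest, with a median of 0.18, and the first leucine array the lowest, with -0.09.

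On the median, the members deviated from their own means by 0.04 and -0.03 on the casein arrays, by 0.18 and 0.03 on the dairy arrays, and by -0.09 and -0.02 on the leucine arrays. The plot of deviations by array shows that the 6 clouds overlap widely. The first dairy array held the highest value for 35 of the 70 members (50%), against 16.4% of all genes. The second dairy array held it for 16 members (22.9%), against 12.4% of all genes. The first leucine array held the lowest value for 24 members (34.3%), against 16.8% of all genes. Both dairy arrays stood above the other 4 for 8 members, namely Rpl13a, Rpl27, Rpl29, Rpl34, Rpl7a, Rps25, Rps29 and Rpsa, and for 4.01% of all genes. Both leucine arrays stood below the other 4 for 15 members and for 8.02% of all genes. The first casein array held the highest value for 10 members (14.3%), against 17.8% of all genes. A value tied between arrays was counted for the first of them in the order casein, dairy, leucine. The shares of single arrays can depend partly on that order.

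Most ribosomal protein mRNAs had a lower signal with leucine than with dairy. The difference was negative for 55 of the 70 members, where 49% of all genes were lower, and positive for 15, where 49% were higher. The members' median difference was -0.18 and that of all genes 0.00. Over genes above the median gene only, these medians were -0.167 and -0.031. No member passed a Benjamini-Hochberg adjusted p of 0.05 over all 14506 genes in limma, and neither did any other gene (0% called). The lowest adjusted p of a member was 0.514. At an unadjusted p under 0.05, 12 members (17.1%) were called against 5.7% of all genes. Of these, 11 were lower (3.45% of all genes) and 1 was higher (2.25% of all genes). The arrays of the 2 diets did not overlap for 28 members that were lower, where 14.9% of all genes did so, and for 4 that were higher, where 13.4% did. No member differed by more than 2-fold, and the 95% confidence interval of a member's difference reached, on the median over members, 0.44 to either side. Without the first dairy array the median was -0.08, with 50 members lower and 2 of the 70 under an unadjusted p of 0.05, where 5.62% of all genes were, so the members' share was then not above that of all genes. Without the first leucine array it was -0.14, with 56 lower and 4 under that p, where 7.76% of all genes were, again not above the share of all genes.

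**Figure D2:**
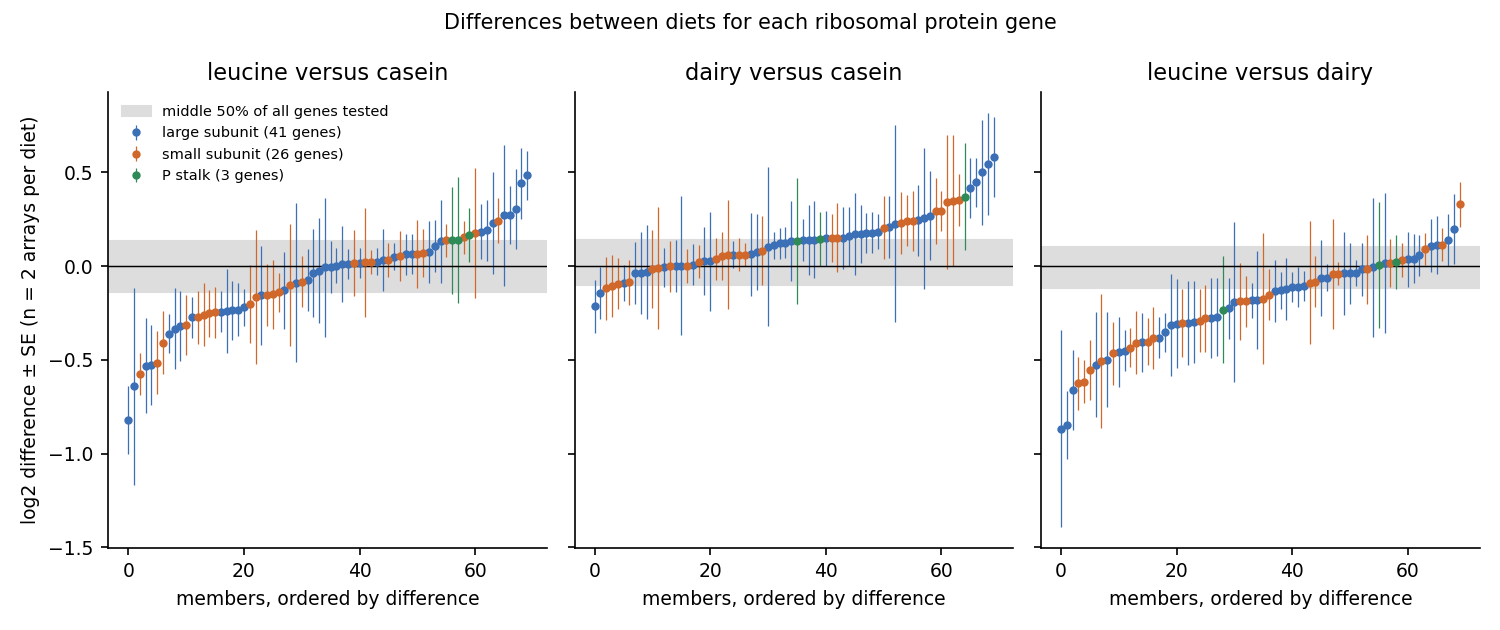
Log2 difference ± SE (vertical axis, n = 2 arrays per diet) of each of the 70 members, ordered by size (horizontal axis), for each pair of diets. The grey band holds the middle 50% of all genes tested. Between leucine and dairy 55 members lie below 0, and between dairy and casein 55 lie above it.

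Small-subunit proteins made up 7 of the 12. Rps26, a protein near the channel where mRNA leaves the ribosome, read 9.81 and 9.65 with casein, 9.89 and 9.65 with dairy, and 9.13 and 9.17 with leucine. Both leucine arrays were below all the others, and leucine was lower than dairy by a log2 difference of -0.62 ± 0.11 (SE, limma adjusted p = 0.514). The 6 array entries of Rps26 gave differences from -0.71 to -0.57. Rps25, known for its part in translation from internal ribosome entry sites, read 7.6 and 7.83 with casein, 8.10 and 8.04 with dairy, and 7.30 and 7.59 with leucine. Here dairy lay above and leucine below both casein arrays, and leucine differed from dairy by -0.63 ± 0.14 (limma adjusted p = 0.606).

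Rps29, a small zinc-binding protein of the subunit head, read 11.25 and 11.33 with casein, 11.57 and 11.60 with dairy, and 11.03 and 11.27 with leucine. Dairy was above the other diets, while casein and leucine overlapped. The leucine minus dairy difference was -0.43 ± 0.10 (limma adjusted p = 0.619). Rpsa, which is also known as a laminin receptor, read 9.35 and 9.02 with casein, 9.49 and 9.36 with dairy, and 8.74 and 9.0 with leucine. All leucine values were lower than all casein and dairy values, the second leucine array by little, and leucine minus dairy was -0.56 ± 0.16 (limma adjusted p = 0.760).

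Rps14, a protein of the subunit platform, read 8.20 and 8.05 with casein, 8.41 and 8.14 with dairy, and 7.81 and 7.94 with leucine. Its leucine minus dairy difference was -0.40 ± 0.13 (limma adjusted p = 0.803). Rps24 read 5.83 and 5.52 with casein, 5.95 and 5.81 with dairy, and 5.25 and 5.57 with leucine, a difference between leucine and dairy of -0.46 ± 0.17. Rps24 differs from Rps14 in that its casein and leucine arrays overlapped. Rps16, whose tail reaches the decoding site, went the other way, with 7.88 and 8.01 for casein, 7.72 and 8.00 for dairy, and 8.20 and 8.17 for leucine. Both leucine arrays were above the others, and the difference from dairy was 0.33 ± 0.12 (limma adjusted p = 0.873). Over the 26 small-subunit members the median was -0.19, with 21 lower and 5 higher.

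The other 5 of the 12 encode large-subunit proteins, all lower with leucine than with dairy. Rpl36 read 9.20 and 9.06 with casein, 9.05 and 9.26 with dairy, and 8.09 and 8.53 with leucine. Both leucine arrays were far below the others but also apart from each other, and leucine differed from dairy by -0.85 ± 0.18 (limma adjusted p = 0.595), a 1.80-fold difference. The 10 array entries of Rpl36 ranged from -0.93 to -0.70. Rpl11, which with Rpl5 binds the 5S rRNA and the p53 regulator Mdm2, read 10.10 and 9.91 with casein, 10.37 and 9.91 with dairy, and 9.30 and 9.66 with leucine. Leucine was below both other diets, and its difference from dairy was -0.66 ± 0.21 (limma adjusted p = 0.815). Rpl5 itself differed by -0.27, and its arrays overlapped between leucine and dairy.

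Rpl29 read 10.06 and 9.93 with casein, 10.27 and 10.08 with dairy, and 9.63 and 9.81 with leucine. The 3 diets did not overlap, with leucine lowest and dairy highest, and leucine minus dairy was -0.45 ± 0.11 (limma adjusted p = 0.621). Rpl27 was ordered in the same way, with 7.88 and 7.84 for casein, 8.11 and 7.89 for dairy, and 7.53 and 7.71 for leucine, a leucine minus dairy difference of -0.38 ± 0.11. Rpl35, a protein at the exit of the peptide tunnel, read 8.85 and 8.70 with casein, 8.84 and 8.70 with dairy, and 8.33 and 8.50 with leucine. Casein and dairy were level here, and leucine minus dairy was -0.35 ± 0.10 (limma adjusted p = 0.768). The 41 large-subunit members had a median of -0.13, with 33 lower and 8 higher.

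**Figure D3:**
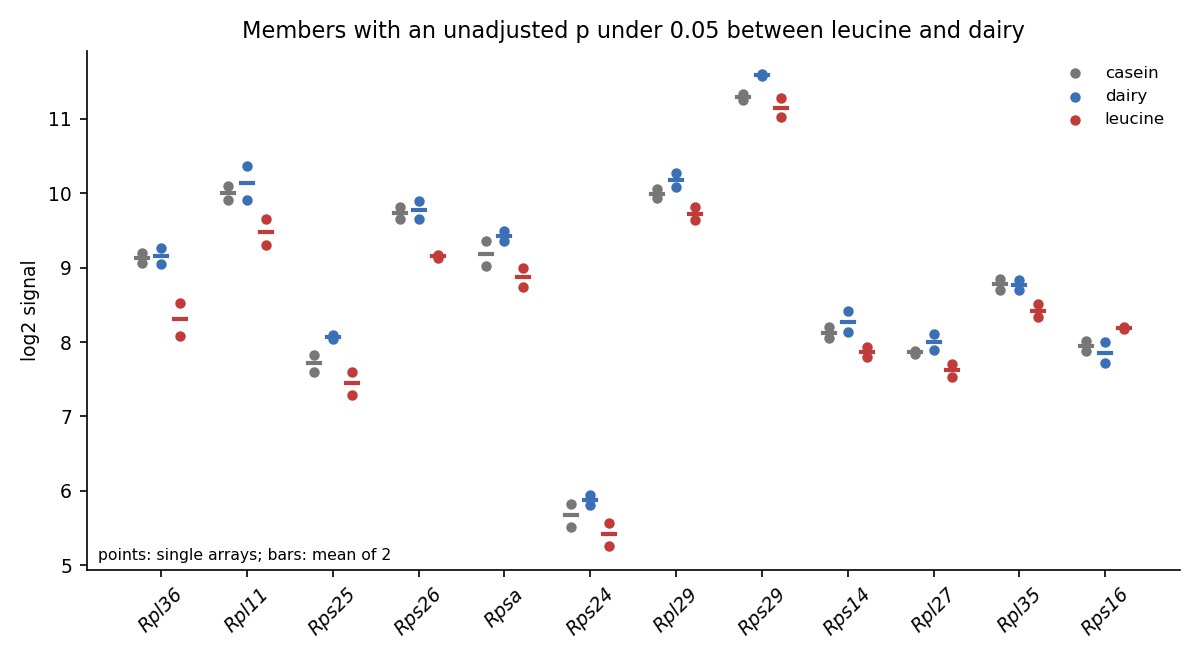
Log2 signal (vertical axis) of the 12 members with an unadjusted limma p under 0.05 between leucine and dairy. Points are single arrays and bars are means of 2 arrays per diet. The leucine arrays lie below the dairy arrays for 11 genes and above them for Rps16.

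The 15 members with a positive difference between leucine and dairy had small ones apart from Rps16. Rpl38 differed by 0.20 ± 0.19, Rpl15 by 0.14 ± 0.14, and Rps6, Rpl36a and Rpl23 by 0.11 each. Rps21 followed with 0.09 and Rpl8 with 0.06. Rps21, Rpl36a and Rpl38 had both leucine arrays above both dairy arrays, as Rps16 did.

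Rpl13 had the largest difference of all members between leucine and dairy, -0.87 ± 0.53 (limma adjusted p = 0.903). It read 9.05 and 7.84 with casein, 9.15 and 8.19 with dairy, and 7.73 and 7.87 with leucine, so both leucine arrays were below both dairy arrays, but the 2 dairy arrays, like the 2 casein arrays, differed by more than the means of leucine and dairy did. Its 7 array entries ranged from -0.87 to -0.16.

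The P stalk recruits and activates the elongation factors, and its mRNAs had no common direction between leucine and dairy. Rplp0, the stalk base, read 9.28 and 9.0 with casein, 9.15 and 9.41 with dairy, and 9.26 and 9.35 with leucine, a leucine minus dairy difference of 0.02 ± 0.14. Its 95% interval ran from -0.37 to 0.41, which includes the differences seen in Rpl35 and in Rps16. Rplp1 differed by -0.23 ± 0.28 and Rplp2 by 0.00 ± 0.34. The median of the 3 was 0.00, and none had an unadjusted p under 0.05.

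Both sets of members defined by the TOP tract had a similar median difference between leucine and dairy. It was -0.19 for the 23 with a tract, of which 21 were lower, and -0.18 for the 36 without, of which 28 were lower. Between dairy and casein the medians were 0.14 and 0.13. Between leucine and casein they were 0.01 and -0.09. The sets depend on the annotated first base. Rpl27a and Rps23, for example, began with T in a run of 19 pyrimidines and were counted as without a tract. Whether the annotated starts are those used in this muscle was not tested, so the split cannot show whether the TOP tract matters here. These values describe the 2 sets, and the difference between them was not tested.

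Most ribosomal protein mRNAs had a higher signal with dairy than with casein. The difference was positive for 55 members, where 51.2% of all genes were higher, and negative for 15, where 47.6% were lower. The median was 0.13 for the members and 0.00 for all genes. Over genes above the median gene only, it was 0.129 for the 68 members among them and 0.098 for all of them. The members' median was 0.03 after quantile normalization, with 40 members higher and 30 lower. No gene passed the adjusted threshold in limma (0%), and the lowest adjusted p of a member was 0.833. At an unadjusted p under 0.05, 3 members were called, all higher (2.49% of all genes were higher at that p, 2.31% were lower and 4.8% were called in either direction), so the members' share of 4.29% was near the background. The arrays of the 2 diets did not overlap for 12 higher members (11.5% of all genes) and 1 lower member, Rpl4 (11.7% of all genes). Without the second casein array the median was 0.05 with 43 members higher and 26 lower, and without the first dairy array it was 0.06 with 43 higher and 27 lower. This comparison shares its dairy arrays with the one above and its casein arrays with the one below.

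The 3 called members were Rpl30, Rps29 and Rpl31. Rpl30 read 9.57 and 9.74 with casein, 9.95 and 10.25 with dairy, and 10.15 and 10.13 with leucine. Casein was below both other diets, by 0.45 ± 0.13 against dairy (limma adjusted p = 0.833). Rps29, given above, was higher with dairy by 0.29 ± 0.10. Rpl31 read 8.60 and 8.93 with casein, 9.56 and 9.13 with dairy, and 8.93 and 9.21 with leucine, a dairy minus casein difference of 0.58 ± 0.21. Its 7 array entries ranged from -0.25 to 0.58 in this comparison, so their direction was not shared.

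Other members with a positive difference were Rpl39, a protein lining the peptide tunnel, at 0.42 ± 0.16 and Rps25 at 0.35 ± 0.14. Rpl22l1, at 0.54 ± 0.27, and Rpl3 had larger but less certain differences, and Rpl7a had 0.18. The lowest differences between dairy and casein were those of Rpl24, at -0.21 ± 0.14, and Rpl15, at -0.14 ± 0.14. The 2 array entries of Rpl24 gave -0.21 and 0.24, so their direction was not shared. Rpl4, Rps15, Rps16, Rps10, Rps28 and Rpl10a lay between -0.12 and -0.04. The median was 0.14 over the large-subunit members, 0.06 over the small-subunit members and 0.15 over the stalk.

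Leucine and casein differed in no common direction across the ribosomal protein mRNAs. Of the members 34 were higher, where 49.1% of all genes were higher, and 36 were lower, where 50% were lower. The median was -0.005 for the members and 0.000 for all genes. No gene passed the adjusted threshold in limma (0%), and the lowest adjusted p of a member was 0.354. At an unadjusted p under 0.05, 5 members (7.14%) were called against 9.61% of all genes, 1 higher (4.76% of all genes) and 4 lower (4.85% of all genes). The arrays did not overlap for 10 higher members (15.9% of all genes) and 18 lower members (15.6% of all genes). The sign of the median depended on the scaling of the arrays. It was -0.10 with 51 members lower after quantile normalization, and 0.10 with 42 higher after each array was centred on its median gene, which shifted the median of all genes to 0.10 as well. Without the second casein array it was -0.12 with 44 lower.

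The members lower with leucine than with casein were led by Rps26 and Rpl36, whose array values stand above. Rps26 differed by -0.58 ± 0.11 (limma adjusted p = 0.354) and Rpl36 by -0.82 ± 0.18 (limma adjusted p = 0.381). Rpl35 differed by -0.36 ± 0.10. Rps28 read 10.23 and 9.88 with casein, 10.10 and 9.80 with dairy, and 9.51 and 9.57 with leucine, and differed from casein by -0.51 ± 0.17. In these 4 genes both leucine arrays were below all casein arrays. Rpl30 was the 1 higher member, by 0.49 ± 0.13 (limma adjusted p = 0.414), and its 2 array entries gave 0.49 and 0.51. Rpl38, a protein known for its role in translating Hox mRNAs, read 8.02 and 8.54 with casein, 8.55 and 8.50 with dairy, and 8.77 and 8.67 with leucine, and was higher with leucine by 0.44 ± 0.19, with both leucine arrays above the others. Rps10 differed between leucine and casein by -0.41 ± 0.17, and Rpl36a by 0.27.

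Several members of known function were listed for description whatever their difference. Rps6, the ribosomal substrate of the S6 kinases downstream of mTORC1, read 9.50 and 9.61 with casein, 9.64 and 9.52 with dairy, and 9.75 and 9.64 with leucine. Leucine minus casein was 0.14 ± 0.09, with a 95% interval from -0.10 to 0.37, and the dairy and casein arrays overlapped. Rpl3, which lies close to the peptidyl transferase centre and which Rpl3l replaces in much striated muscle, read 4.73 and 5.40 with casein, 5.79 and 5.34 with dairy, and 5.08 and 5.0 with leucine. Dairy minus casein was 0.50 ± 0.28 and leucine minus casein -0.02 ± 0.28, a wide spread at a dim signal.

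Rpl22 read 7.10 and 6.86 with casein, 7.35 and 6.89 with dairy, and 6.65 and 6.67 with leucine, and its leucine minus dairy difference was -0.46 ± 0.19. Its paralog Rpl22l1 read 3.52 and 2.91 with casein, 4.00 and 3.52 with dairy, and 3.37 and 3.52 with leucine, with a leucine minus dairy difference of -0.31 ± 0.27. Both paralogs were thus lower with leucine than with dairy on the mean, and the 95% intervals of both differences included 0. Rpl22l1 was dimmer than the median gene and had exactly the same value, 3.52, on an array of each diet. Rpl10, which joins the large subunit late in its maturation, Rpl7, Rps4x and Rps27 differed between leucine and dairy by 0.02 ± 0.37, 0.04 ± 0.15, -0.38 ± 0.17 and -0.17 ± 0.35.

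The spread between the 2 arrays of a diet was itself patterned. The median absolute difference between array 1 and array 2 was 0.23 over the members with casein, where all genes had 0.16. It was 0.28 with dairy, where all genes had 0.12, and 0.11 with leucine, where all genes had 0.12. Across the 70 members the array 1 minus array 2 difference with casein correlated with that with dairy (Pearson r = 0.67). Over all 14506 genes the same correlation was 0.09, over the 7253 genes above the median gene 0.13, and over the second-brightest entries of the 54 members that had one 0.74. For casein against leucine it was 0.09 over the members, and for dairy against leucine 0.23. The points share their arrays, are not independent and are given as a description.

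**Figure D4:**
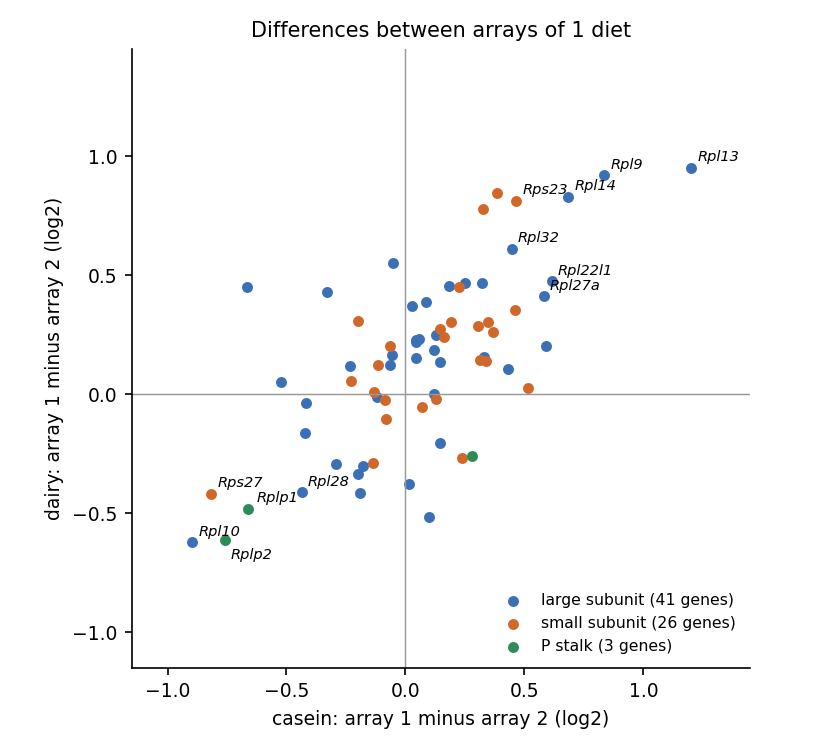
Log2 signal of array 1 minus array 2 with casein (horizontal axis) and with dairy (vertical axis), 1 point per member, coloured by subunit. Named genes differ by over 0.4 in the same direction in both diets. Rpl13 lies at the upper right and Rpl10, Rplp2 and Rps27 at the lower left.

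The first array was the higher one in both diets, by over 0.4, for Rpl13, Rpl9, Rpl14, Rpl22l1, Rpl27a, Rpl32 and Rps23. Rpl9 is an example, with 9.52 and 8.68 for casein, 9.66 and 8.74 for dairy, and 9.01 and 9.01 for leucine. The second array was the higher one in both diets for Rpl10, Rplp1, Rplp2, Rps27 and Rpl28. Rplp2 read 9.35 and 10.11 with casein, 9.56 and 10.17 with dairy, and 9.83 and 9.90 with leucine. Rplp1, its partner in the stalk, read 9.87 and 10.53 with casein, 10.33 and 10.81 with dairy, and 10.29 and 10.39 with leucine. In Rpl9, Rplp1 and Rplp2 the casein and dairy arrays of 1 diet stood further apart than the diet means, and the leucine arrays lay within the range of the other 4.

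Array entries of a gene gave mostly the same direction. Of the 70 members, 54 had several entries, and 257 entries carried a member's symbol. Between leucine and dairy 208 of the 257 were lower, and 43 of the 54 genes had the same sign on all their entries. Between dairy and casein 216 entries were higher and 41 of the 54 genes kept 1 sign. Between leucine and casein 130 entries were higher and 127 lower. Ribosomal protein genes have many near-identical processed copies in the genome, and entries can share probes, so the entries are not independent and a signal cannot be assigned to 1 copy with certainty.

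Ribosomal proteins whose symbols fall outside the naming rule followed the same direction in both measured cases, of 4 listed. Rack1, a signalling scaffold of the small subunit, read 9.74 and 9.50 with casein, 9.73 and 9.60 with dairy, and 8.89 and 9.17 with leucine. Leucine was below both other diets, and leucine minus dairy was -0.63 ± 0.14 (limma adjusted p = 0.610). Fau, which encodes a ubiquitin-like protein fused to a small-subunit protein, read 8.58 and 8.44 with casein, 8.79 and 8.51 with dairy, and 8.25 and 8.25 with leucine. Leucine minus dairy was -0.40 ± 0.12 (limma adjusted p = 0.768).

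Translation factors went both ways between leucine and dairy. Of 37 initiation factors 31 were measured, with 14 higher, 17 lower, a median of -0.02 and none under an unadjusted p of 0.05. Of 14 elongation and termination factors 13 were measured, with 4 higher, 9 lower and a median of -0.04. Of the 13, 3 were under an unadjusted limma p of 0.05, where 5.7% of all genes were. They were 1 higher (2.25% of all genes) and 2 lower (3.45% of all genes). Eef1a1, which delivers aminoacyl-tRNA and whose mRNA also has a TOP tract, read 10.29 and 10.63 with casein, 10.43 and 10.45 with dairy, and 9.78 and 10.13 with leucine, a leucine minus dairy difference of -0.48 ± 0.17 (limma adjusted p = 0.871). Eef2k, the kinase that inhibits the elongation factor Eef2, differed by -0.55 ± 0.19, and Abce1, which splits ribosomes after termination, by 0.29 ± 0.09. Abce1 was also higher with leucine than with casein, by 0.43 ± 0.09 (limma adjusted p = 0.366). Between leucine and casein the initiation factors were 20 higher and 11 lower (median 0.08), with Eif1ax at 0.46 ± 0.12 and the helicase Eif4a1 at -0.58 ± 0.18. Between dairy and casein they were 24 higher and 7 lower (median 0.06). No translation factor passed the adjusted threshold in any comparison.

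Factors that build ribosomes went both ways. Of 52 ribosome biogenesis factors 45 were measured, and between leucine and dairy 25 were higher and 20 lower, with a median of 0.01. Between dairy and casein 17 were higher and 28 lower (median -0.03), and between leucine and casein 22 were higher and 23 lower (median -0.001). Efl1, the GTPase that frees the large subunit for joining, read 5.06 and 4.78 with casein, 5.52 and 5.55 with dairy, and 5.36 and 5.30 with leucine. Casein was below both other diets, and dairy minus casein was 0.62 ± 0.11 (limma adjusted p = 0.833). The chaperone Grwd1 differed between leucine and dairy by -0.34 ± 0.11. Of 17 genes of RNA polymerase I and rDNA transcription, 14 were measured, 7 higher and 7 lower between leucine and dairy (median 0.01), among them Polr1e at -0.32 ± 0.11. None of these genes passed the adjusted threshold.

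**Figure D5:**
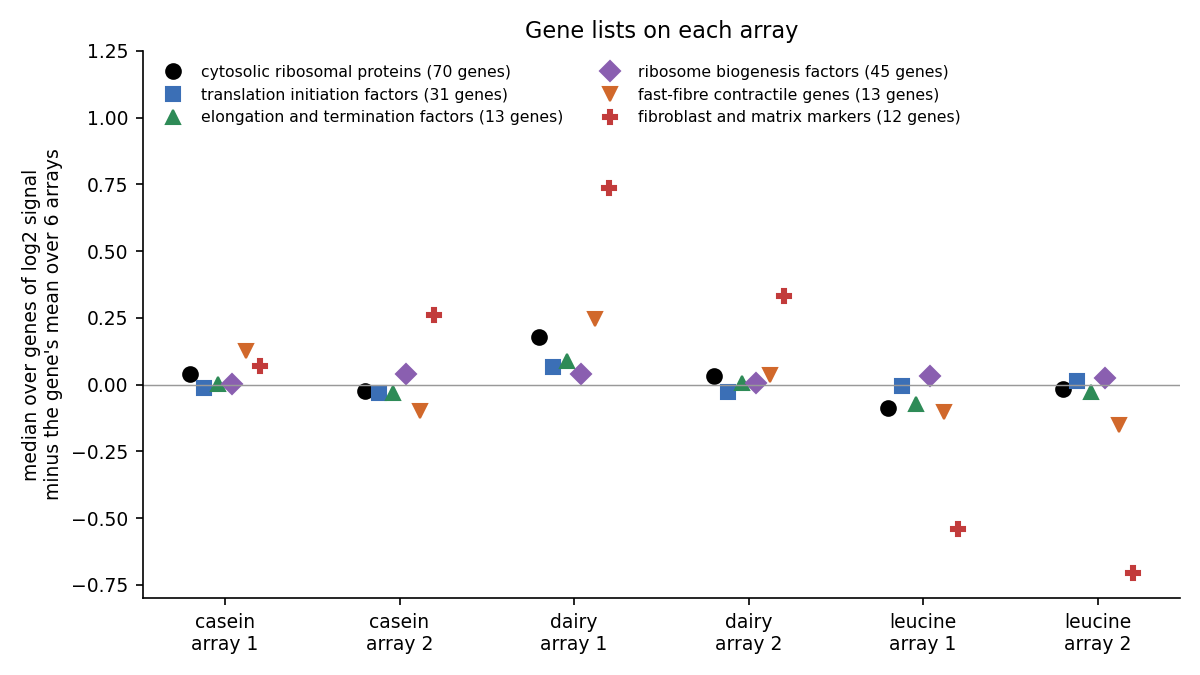
Median over the genes of 6 lists of the log2 signal minus each gene's mean over the 6 arrays (vertical axis), by array (horizontal axis). The first dairy array is the highest for all 6 lists, among them the ribosomal proteins (0.18) and the fibroblast and matrix markers (0.73). For the ribosome biogenesis factors it is so by little (0.0403 against 0.0391 on the second casein array). The fibroblast and matrix markers are lowest on the leucine arrays (-0.54 and -0.71).

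Several lists of other cells' markers were also lower with leucine than with dairy, and others were higher. All 12 measured fibroblast and matrix markers, of 14 listed, were lower with leucine than with dairy (median -1.09), among them Col1a1, a fibrillar collagen chain, at -2.00 ± 0.27 (limma adjusted p = 0.514). Their median deviation was 0.07 and 0.26 on the casein arrays, 0.73 and 0.33 on the dairy arrays, and -0.54 and -0.71 on the leucine arrays, and none of them was listed at 0. All 18 measured macrophage and leukocyte markers, of 19, were lower as well (median -0.62), as were all 8 adipocyte markers (median -0.61) and 9 of 10 endothelial markers (median -0.18). Of the 13 measured fast-fibre contractile genes, of 15, 12 were lower (median -0.27), with deviations of 0.25 on the first dairy array and -0.10 and -0.15 on the leucine arrays. Erythroid markers, 4 measured of 7, and 7 neutrophil markers had medians of 0.02 and 0.01. In the other direction, 18 of 20 hepatocyte markers (median 0.48) and 10 of 13 slow-fibre genes (median 0.36) were higher with leucine than with dairy on the mean. The leucine arrays did not share this direction for the hepatocyte markers. Their median deviation was below both dairy arrays on the first leucine array, the lowest of all arrays, and above both on the second. For the slow-fibre genes both leucine arrays had a higher median deviation than both dairy arrays. Between dairy and casein, 11 of 12 fibroblast and matrix markers (median 0.21) and 12 of 13 fast-fibre genes (median 0.09) were higher with dairy. All 13 slow-fibre genes were also higher (median 1.48), and all 20 hepatocyte markers were lower (median -1.73). The slow-fibre deviation was 0.45 on the first casein array, within the dairy values, and -2.95 on the second. For the hepatocyte markers it was 0.02 and 2.0. Both differences thus came mostly from the second casein array. None of these genes passed the adjusted threshold. The part of these genes in the ribosomal protein differences was not tested.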

How the data were processed

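RNA of 6 gastrocnemius samples, 2 per diet, was hybridised to Affymetrix Rat Gene 1.0 ST arrays. The authors deposited log2 signals, 1 for each transcript cluster on each array. The submitters' processing notes name Affymetrix Expression Console. Its version, background correction and normalization are not given in the sources used here, and scanner background was not used here. The labelled tissue is gastrocnemius, although the storage and extraction protocols mention liver.

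Of 29214 clusters 15310 had 1 gene in GEO's platform annotation, 323 had several and were left out, and the brightest cluster per symbol left 14506 genes with no filter. Of the 70 member gene identifiers 68 were in the RefSeq table of GRCr8. No cluster was matched to Rpl3l by symbol, gene identifier or accession, so the planned values for it are not reported.

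With limma 3.58.1 (R 4.3.3), 1 model of the 3 diet means was fitted over the 6 arrays, with 3 residual degrees of freedom. Benjamini-Hochberg adjustment covered all genes. On simulated data for leucine against casein (14506 genes, 5 runs, 200 changed genes each) it recovered 45.8% of 2-fold and 77.4% of 4-fold changes at the adjusted threshold of 0.05. The simulated noise was independent between genes, and changed genes were drawn from all genes. The members' median standard error was 0.165 against 0.130 for all genes, so the recovery does not describe the members. Errors of differences are the model's standard errors with n = 2 arrays per diet. Precision is limited by the number of arrays.

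The members and lists were chosen with earlier results of these data known. Members named were those with the smallest p in each direction (up to 8 per comparison), a list of 16 members of known function of which 12 were measured, the dimmest, the brightest and those of widest range, and up to 3 genes per direction of each pathway list. Rps14, Rps24, Rpl5, Rpl9, Rpl14, Rpl27a, Rpl28, Rpl32, Rpl34, Rpl13a, Rps23 and Col1a1 were named after their values were seen, where not covered by that rule. Alternatives were quantile normalization, centring on the median gene, the mean of all clusters of a symbol, leaving out dim genes, trended robust moderation, array weights, fits of 2 diets, a replicate block and leaving out each array.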

Additional observations from a re-analysis of the deposited data

How the results depend on the processing

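No ribosomal protein gene passed the adjusted threshold of 0.05 under any of the alternatives or without any array. The members' median difference kept its sign between leucine and dairy and between dairy and casein under all of them. With quantile normalization it was -0.104 between leucine and casein and 0.0296 between dairy and casein, where 40 members were then higher and 30 lower. With arrays centred on the median gene it was 0.096 between leucine and casein (42 members higher, 28 lower), 0.170 between dairy and casein (61 higher, 9 lower) and -0.112 between leucine and dairy (25 higher, 45 lower). Leaving out each array in turn gave -0.116 to -0.00622 between leucine and casein, 0.054 to 0.203 between dairy and casein, and -0.190 to -0.081 between leucine and dairy. The lowest dairy minus casein median came without the second casein array and the weakest leucine minus dairy median without the first dairy array. The cause was not tested.

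Of the single genes named, the sign turned for Rpl3 between leucine and casein when arrays were centred (0.0760), for Rpl24 between dairy and casein with the mean of its clusters (0.0130), and with quantile normalization for Rps6 between dairy and casein (-0.0773) and for Rpl10 (-0.000604) and Rplp2 (-0.0192) between leucine and dairy. Leaving out 1 array turned the sign of the following, whose differences were at most about as large as their standard errors. Between leucine and casein the ranges were -0.178 to 0.719 for Rpl10, -0.192 to 0.470 for Rplp1, -0.240 to 0.520 for Rplp2, -0.232 to 0.585 for Rps27, -0.338 to 0.0288 for Rps4x, -0.0773 to 0.538 for Rpl22l1 and -0.359 to 0.309 for Rpl3. Between dairy and casein they were -0.0370 to 0.0854 for Rps6, -0.0585 to 0.758 for Rps27, -0.194 to 0.703 for Rpl10, -0.244 to 0.516 for Rplp2, -0.251 to 0.0151 for Rps10, -0.281 to 0.0670 for Rps28, -0.243 to 0.171 for Rpl10a, -0.0449 to 0.341 for Rpl7, -0.0931 to 0.374 for Rpl22 and -0.231 to 0.0576 for Rps16. Between leucine and dairy they were -0.0789 to 0.297 for Rpl23, -0.109 to 0.149 for Rplp0, -0.295 to 0.326 for Rpl10, -0.302 to 0.311 for Rplp2, -0.0665 to 0.181 for Rpl8, -0.156 to 0.230 for Rpl7, -0.472 to 0.0085 for Rplp1, -0.390 to 0.0429 for Rps27 and -0.00388 to 0.286 for Rpl15.

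The replicate numbers were not taken to pair the arrays, since the correlation of the deviations across genes was 0.0865 for casein with dairy, 0.179 for casein with leucine and 0.0536 for dairy with leucine. A fit with the replicate number as a block called no member at the adjusted threshold, left the median between leucine and dairy at -0.178, and put 14 members under an unadjusted p of 0.05 in that comparison (6.62% of all genes), 4 between dairy and casein (5.85% of all genes) and 5 between leucine and casein (11.2% of all genes). Values planned for Rpl3l were not run.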
